A study of Arabidopsis thaliana with 72 samples.

Results

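The response of wild-type Arabidopsis thaliana seedlings to prolonged flg22 exposure under ample phosphate was measured by RNA-seq. The members are 12 of the 72 libraries of the series, chosen by their titles: 6 from Col-0 seedlings on medium with 1 mM phosphate and 1 µM flg22, and 6 from Col-0 seedlings on the same medium without flg22. Each group holds 3 libraries from experiment A and 3 from experiment B, which the labels call independent experiments. Seedlings first grew for 7 days with ample phosphate (1 mM) and 1% sucrose in Johnson medium, and then spent 12 days on the test medium under 9 h of light and 15 h of dark per day; whole seedlings were sampled. Col-0 is the reference accession and neither group carried a mutation or a transgene. The labels do not say that each library came from its own plate or pool of seedlings, so p-values measure the spread between these libraries, which may in part be technical. Col-0 at low phosphate (about 5 µM) and the double mutant phr1 phl1, which lacks 2 transcription factors of the phosphate starvation response, were used below only to set this response beside the same contrast elsewhere.

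flg22 is a peptide from the conserved part of bacterial flagellin. In Arabidopsis it is bound by the receptor kinase FLS2, which then pairs with the co-receptor kinase BAK1 and sets off a calcium influx, an oxidative burst and a cascade of mitogen-activated protein kinases. WRKY transcription factors act downstream, and the response includes cell wall enzymes, indole glucosinolates and other tryptophan-derived defence compounds. Most descriptions of flg22 concern the first minutes to hours, whereas these seedlings had been in contact with the peptide for days.

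In Col-0 at high phosphate 84 of the 17500 genes tested rose (0.480%) and 47 fell (0.269%), by edgeR's quasi-likelihood test with experiment as a covariate and a Benjamini-Hochberg adjusted p under 0.05. Values are given as CPM, counts divided by the library total after scaling by the TMM factors of edgeR, and changes as log2 of flg22 over untreated. Among the genes that rose were a berberine bridge enzyme-like oxidase, which had the largest change, enzymes that modify indole glucosinolates, peroxidases, chitinases and proline-rich wall proteins. Those that fell included the vacuolar aquaporin TIP2;3, the low-sulfur genes LSU1 and LSU2, a chloroplast beta-amylase and a sugar transporter. Among the genes called, 34 of the 84 rose and 10 of the 47 fell by at least 2-fold. All 84 and all 47 changed in the same direction within experiment A and within experiment B. Their selection favours this, because a gene with opposite changes in the experiments seldom passes the pooled test. Equal signs are therefore not a separate replication. Without regard to the test, all 6 flg22 libraries lay above all 6 untreated ones in CPM for 59 genes (0.337%) and below them for 44 (0.251%), of which 32 (0.183% of those tested) and 10 (0.0571%) were called. Within each experiment the flg22 libraries were separated upwards for 169 genes (0.966%) and downwards for 163 (0.931%), of which 61 (0.349%) and 35 (0.200%) were called. The counts were unstable: leaving out 1 library at a time gave between 18 and 149 genes that rose and between 11 and 90 that fell, and 17 of the 84 and 10 of the 47 passed in all 12 of these fits. For genes that rose, the count was 18, 30 or 41 without untreated A1, A2 or A3, 36 or 149 without untreated B2 or B3, and 29 or 50 without flg22 A3 or B2. For genes that fell, it was 11, 14 or 21 without untreated A1, A2 or A3, 30, 27 or 90 without untreated B1, B2 or B3, and 29, 19 or 25 without flg22 A2, A3 or B2.

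The total count per library ran from 2212634 to 6883818. The first principal component, computed on the 1000 genes that varied most and holding 50.2% of their variance, separated experiment A from experiment B, and within the 12 libraries 1911 genes were higher and 1908 lower in B than in A (10.9% each). Green tissue markers (RBCS1A, RCA, LHCB1.3, CA1, GAPB) summed to 46198 to 60199 CPM in untreated and 32758 to 59014 CPM in flg22 libraries, and root markers (PER64, CASP1, CASP2, MYB36, PRP3, EXPA7, PYK10) to 1715 to 2558 and 1659 to 2355 CPM. None of the 5 green and none of the 7 root markers passed the test. Seed storage and flower markers were too low to be tested, with at most 3 and 5 reads for a gene in any library. In whole seedlings, fewer cells of a type and less RNA per cell cannot be told apart. The libraries are not stranded, so where RefSeq genes overlap on opposite strands, reads of the shared stretch cannot be told apart by strand. Such an overlap exists for AT4G01700, AT4G20830, AT4G20860, WRKY33, PUB23, AT2G47550, AT5G43440, CT-BMY, AO, DTX1, AT5G12110, COL2, STH, FLS2, BAK1, AT4G28610, AT2G14080 and BHLH101. AT1G15125, AT3G24460 and CA1 overlap an annotated gene on the same strand. Whether reads of such stretches entered the deposited counts was not examined.

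**Figure D1:**
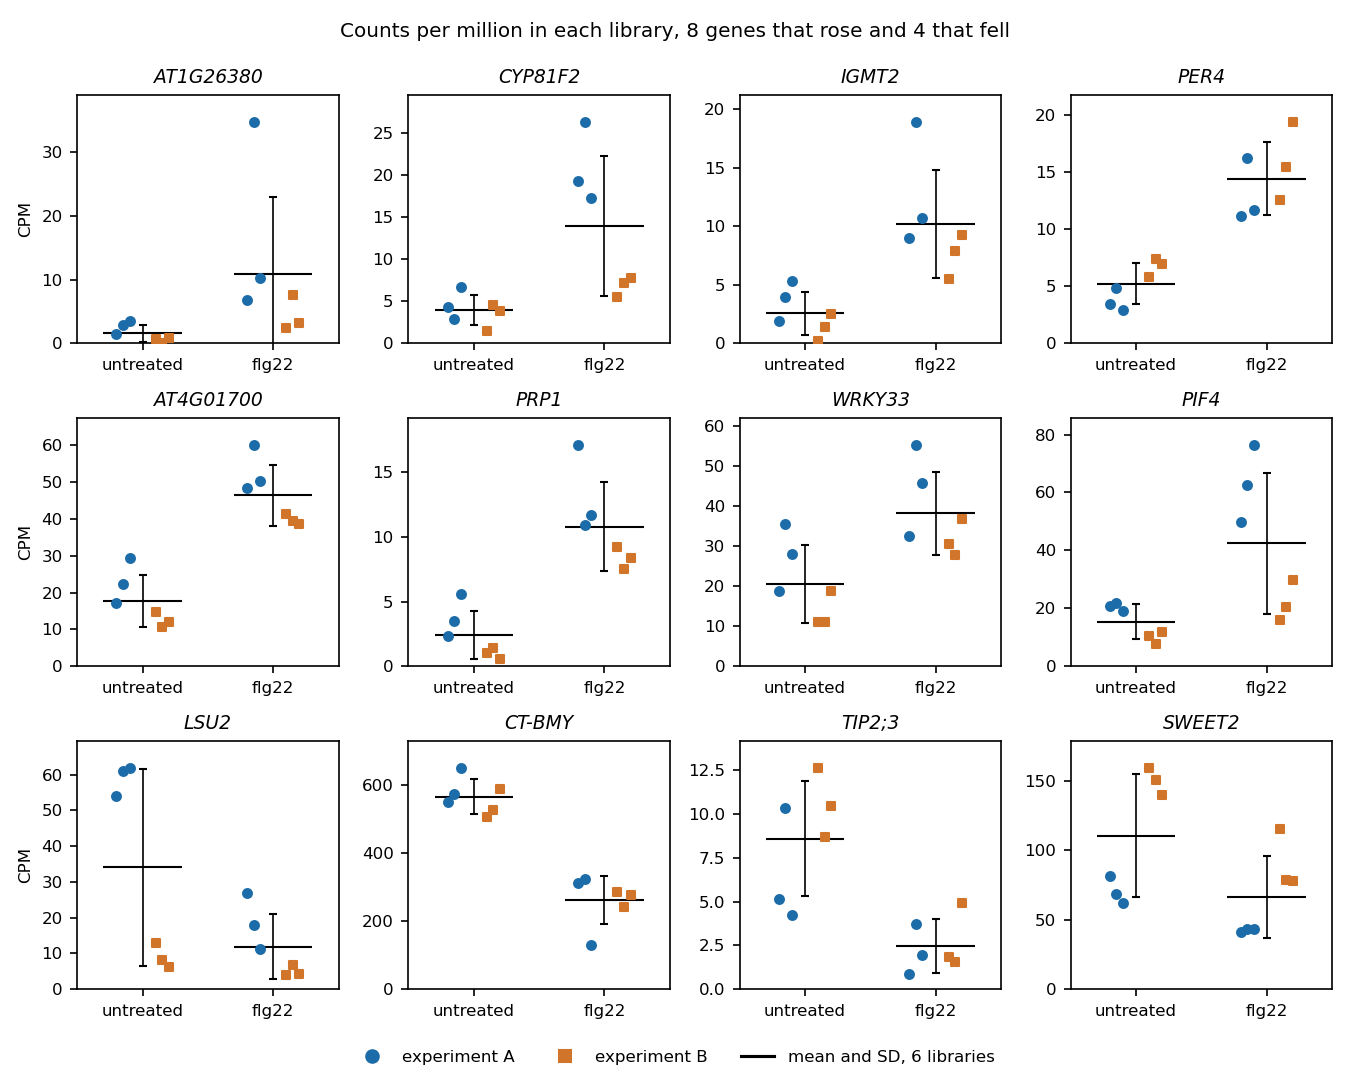
CPM of 8 genes that rose (AT1G26380 to PIF4) and 4 that fell (LSU2 to SWEET2) in each of the 12 libraries. Each panel has its own linear axis from 0; circles are experiment A, squares experiment B, bars the mean and SD of 6 libraries. PER4 and AT4G01700 do not overlap between groups, whereas LSU2 and SWEET2 differ between the experiments as well as between treatments.

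Promoter sequences of 5 genes that rose are shown because their products take part in the response to flg22 and their upstream regions carry the W-box core. The W-box core, TTGAC on either strand, is the element that WRKY factors bind. Each run below is the 250 bases before the annotated gene start, 5′ to 3′ on the gene's strand, from RefSeq's TAIR10.1 assembly, with every TTGAC or its reverse complement in capitals. They lie at chr1:9128569-9128818 (minus strand) for AT1G26380, chr5:23187590-23187839 (plus strand) for CYP81F2, chr1:6389149-6389398 (plus strand) for MYB51, chr2:16107985-16108234 (plus strand) for WRKY33 and chr3:19442428-19442677 (minus strand) for PUB22.
AT1G26380: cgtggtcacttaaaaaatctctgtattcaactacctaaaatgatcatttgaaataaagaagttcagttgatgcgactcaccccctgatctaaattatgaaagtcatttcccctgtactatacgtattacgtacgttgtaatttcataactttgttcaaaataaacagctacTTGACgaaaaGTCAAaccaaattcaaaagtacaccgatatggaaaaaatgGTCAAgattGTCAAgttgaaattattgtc
CYP81F2: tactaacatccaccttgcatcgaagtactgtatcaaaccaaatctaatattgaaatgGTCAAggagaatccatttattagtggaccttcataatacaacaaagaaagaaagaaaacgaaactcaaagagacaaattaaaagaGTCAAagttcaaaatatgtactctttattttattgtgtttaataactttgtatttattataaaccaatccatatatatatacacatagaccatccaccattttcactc
MYB51: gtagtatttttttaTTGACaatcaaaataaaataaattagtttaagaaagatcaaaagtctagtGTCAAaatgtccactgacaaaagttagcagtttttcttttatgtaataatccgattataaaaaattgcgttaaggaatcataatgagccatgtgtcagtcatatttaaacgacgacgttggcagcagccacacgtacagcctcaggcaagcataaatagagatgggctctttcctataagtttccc
WRKY33: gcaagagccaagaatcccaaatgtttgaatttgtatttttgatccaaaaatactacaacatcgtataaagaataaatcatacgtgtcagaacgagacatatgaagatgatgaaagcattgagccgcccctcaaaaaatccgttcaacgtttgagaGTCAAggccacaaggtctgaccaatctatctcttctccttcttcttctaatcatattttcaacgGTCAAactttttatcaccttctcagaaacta
PUB22: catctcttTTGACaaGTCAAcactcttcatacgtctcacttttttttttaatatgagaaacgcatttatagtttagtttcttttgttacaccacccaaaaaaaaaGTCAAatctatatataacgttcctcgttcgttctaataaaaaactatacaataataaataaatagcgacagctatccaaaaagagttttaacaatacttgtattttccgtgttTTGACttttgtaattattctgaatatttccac
AT1G26380 and PUB22 hold 4 such cores each, and CYP81F2, MYB51 and WRKY33 hold 2. The core was found in 66.7% of the 84 windows of genes that rose, in 53.2% of the 47 windows of genes that fell and in 45.0% of all 26718 windows of this length. At least 2 cores were present in 38.1% of the windows of genes that rose, in 17.0% of those of genes that fell and in 14.2% of all windows. The binding sequence of PHR1 (GNATATNC, which reads the same on both strands) was in 8.33% of the windows of genes that rose, 14.9% of those of genes that fell and 5.45% of all. The G-box CACGTG was in 8.33%, 4.26% and 6.58%, and the GCC box GCCGCC, searched on both strands, in 2.38%, 0% and 1.85%. The CGCG box ACGCGT was in 4.76%, 0% and 1.69%, and the evening element AAAATATCT, searched on both strands, in 2.38%, 6.38% and 2.40%. These are counts of letters in a window and not of bound sites.

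The receptors themselves did not pass the test. FLS2, the flg22 receptor, ran from 7.79 to 16.7 CPM (median 9.55) in untreated and from 3.0 to 14.7 CPM (median 11.8) in flg22 libraries, and BAK1 from 59.3 to 70.1 and from 62.1 to 75.9 CPM. Their log2 changes were -0.09 (SE 0.22, adjusted p = 0.919 by edgeR) and 0.09 (SE 0.09, adjusted p = 0.723), and the groups overlapped; without flg22 A1 the FLS2 value was 0.023. Of 29 tested receptor and early signalling genes, 2 rose and none fell, with a median log2 change of 0.16 beside -0.00072 over all genes tested. Over all genes tested 0.480% rose and 0.269% fell, the background for the counts of this and every later list. The risers were PUB22 and PUB23, ubiquitin ligases that act together to dampen the immune response. PUB23 ran from 17.4 to 33.7 CPM (median 25.5) in untreated and from 34.3 to 54.3 CPM (median 38.2) in flg22 libraries, so every flg22 library lay above every untreated one. Its log2 change was 0.66 (SE 0.13, adjusted p = 0.0233), and that of PUB22 was 0.70 (SE 0.16, adjusted p = 0.0436).

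Markers of pattern-triggered immunity gave 4 that rose and none that fell among 18 tested, beside 0.480% of all genes tested that rose. Their median log2 change was 0.69 (0.72 in A, 0.65 in B). CYP81F2, the cytochrome P450 that hydroxylates indole glucosinolates, ran from 1.45 to 6.64 CPM (median 4.05) in untreated and from 5.52 to 26.3 CPM (median 12.6) in flg22 libraries. The 3 flg22 libraries of experiment A were highest, and within each experiment the groups did not overlap; the log2 change was 1.77 (SE 0.26, adjusted p = 0.00475). PER4, a class III peroxidase of the cell wall, ran from 2.92 to 7.34 CPM (median 5.32) in untreated and from 11.1 to 19.4 CPM (median 14.0) in flg22 libraries, without overlap. PER4 changed by 1.5 (SE 0.18, adjusted p = 0.000506), and the neighbouring peroxidase gene AT1G14550 by 1.39 (SE 0.28, adjusted p = 0.0267). The receptor-like kinase AT1G51850 changed by 0.75 (SE 0.17, adjusted p = 0.0471). FRK1, a kinase gene widely used as an early flg22 marker, had the largest change of the list and did not pass: it averaged 4.42 CPM in untreated and 20.3 CPM in flg22 libraries, with a log2 change of 2.04 and an adjusted p of 0.313. Of 21 tested immune WRKY genes 1 rose. This was WRKY33, a regulator of camalexin synthesis, at 11.0 to 35.6 CPM (median 18.8) in untreated and 27.9 to 55.3 CPM (median 34.7) in flg22 libraries, with a log2 change of 0.92 (SE 0.19, adjusted p = 0.0343) and overlapping groups.

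A minority of the tryptophan-derived defence genes passed. Of 19 tested indole glucosinolate genes 3 rose and none fell (median log2 change 0.17), beside 0.480% of all genes tested that rose. They were MYB51, a transcriptional activator of the pathway, and CYP81F2 and IGMT2, which act in sequence to hydroxylate and then methylate the finished glucosinolate. IGMT2 ran from 0.207 to 5.31 CPM (median 2.21) in untreated and from 5.52 to 18.9 CPM (median 9.13) in flg22 libraries. Every flg22 library lay above every untreated one, with a log2 change of 2.04 (SE 0.33, adjusted p = 0.0118). MYB51 ran from 2.37 to 8.36 CPM (median 6.49) and from 10.7 to 23.9 CPM (median 13.6), again without overlap, and changed by 1.3 (SE 0.27, adjusted p = 0.0409). The neighbouring and closely similar genes IGMT3 and IGMT4, which were not on the list and were named after their values were seen, changed by 1.05 (SE 0.23, adjusted p = 0.0401) and 0.84 (SE 0.15, adjusted p = 0.0166), and the division of reads among the copies is uncertain. The core biosynthetic genes CYP83B1, SUR1 and UGT74B1 had log2 changes of 0.22, 0.01 and 0.01, with adjusted p of 0.342, 0.992 and 0.987.

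The largest change among all genes called was that of AT1G26380, a berberine bridge enzyme-like oxidase of the hydroxyindole carbonylnitrile pathway. It ran from 0 to 3.45 CPM (median 1.19) in untreated and from 2.45 to 34.8 CPM (median 7.19) in flg22 libraries. Its groups overlapped over both experiments but not within either, and the log2 change of 2.81 (SE 0.51, adjusted p = 0.0326) split into 2.81 in A and 2.84 in B. By edgeR's fit with the experiment interaction it passed in A (adjusted p = 0.0275) but not in B (adjusted p = 0.497). Its untreated libraries of B held only 0 to 0.873 CPM. It was the 1 riser among 12 tested camalexin and hydroxyindole carbonylnitrile genes (median 0.44). PAD3, the last enzyme of camalexin synthesis, changed by 0.49 with an adjusted p of 0.479, and CYP71A12 by 1.91 with an adjusted p of 0.185. Across the FAD-binding berberine family as RefSeq names it, a grouping made after the values were seen, 6 of 17 tested genes rose and none fell. The share of risers over all genes tested was 0.480%. AT1G30730 went from 6.82 to 18.6 CPM (median 8.65) in untreated to 23.7 to 46.3 CPM (median 29.5) in flg22 libraries, without overlap, a log2 change of 1.54 (SE 0.27, adjusted p = 0.0238). Its tandem neighbours AT1G30720 and AT1G30700 changed by 1.47 (SE 0.30, adjusted p = 0.0482) and 0.81 (SE 0.15, adjusted p = 0.0213). AT4G20830 and AT4G20860, on another chromosome, changed by 0.77 (SE 0.13, adjusted p = 0.0127) and 0.42 (SE 0.09, adjusted p = 0.0432).

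Chitinases and a peroxidase were among the genes with the lowest p. AT4G01700, a chitinase family gene, ran from 10.5 to 29.5 CPM (median 15.9) in untreated and from 38.5 to 60.1 CPM (median 44.9) in flg22 libraries. All 6 flg22 libraries lay above all 6 untreated ones, and the log2 change of 1.42 (SE 0.14) had the lowest adjusted p of all genes, 4.54e-05. The chitinase family gene AT1G02360 changed by 0.89 (SE 0.11, adjusted p = 0.000506), and CHI, also a chitinase, by 0.88 (SE 0.20, adjusted p = 0.0431). Both family groupings that follow were made after the values were seen. In them 3 of 17 tested chitinases and 6 of 47 tested genes of the peroxidase superfamily rose, beside 0.480% of all genes tested. None fell in either. Of 19 tested phenylpropanoid and lignin genes none passed; PRX71, a peroxidase, ran from 38.3 to 119.8 CPM in untreated and from 86.4 to 349.9 CPM in flg22 libraries, a log2 change of 1.46 (SE 0.36) with an adjusted p of 0.121.

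PRP1, a proline-rich wall protein of roots, ran from 0.582 to 5.58 CPM (median 1.87) in untreated and from 7.53 to 17.1 CPM (median 10.0) in flg22 libraries. The groups did not overlap and the log2 change was 2.27 (SE 0.27, adjusted p = 0.000506). PRP1 was the 1 riser of 18 tested root hair genes, whose median log2 change was 0.48 over both experiments, 0.14 in A and 0.88 in B. The summed level of the root hair list was 172 to 204 CPM in untreated and 318 to 402 CPM in flg22 libraries of experiment B, and 228 to 299 and 187 to 384 CPM in experiment A. EXT12, an extensin-like wall protein gene, ran from 1.38 to 13.8 CPM (median 7.61) and from 16.2 to 35.8 CPM (median 23.2), without overlap, and changed by 1.81 (SE 0.29, adjusted p = 0.0157). Among 36 tested genes of the pectin methylesterase and inhibitor superfamily 3 rose, a grouping made after the values were seen: AT2G47550 by 1.64 (SE 0.25, adjusted p = 0.00921), UNE11 by 1.24 (SE 0.26, adjusted p = 0.0329) and AT3G10720 by 0.86 (SE 0.16, adjusted p = 0.0207). Expansins and xyloglucan enzymes moved both ways: of 21 tested, XTH18 rose by 0.58 (SE 0.12, adjusted p = 0.0353) and EXPA10 fell by 0.63 on the log2 scale (SE 0.14, adjusted p = 0.0428).

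Other genes that rose have less defined roles in the response. AT5G42530, an uncharacterized protein, went from 24.1 to 67.7 CPM (median 36.5) in untreated to 94.9 to 303 CPM (median 179) in flg22 libraries, without overlap, a log2 change of 2.15 (SE 0.35, adjusted p = 0.0305). AT1G13480, a DUF1262 protein, changed by 2.2 (SE 0.42, adjusted p = 0.0326), PUB19, a ubiquitin ligase, by 1.67 (SE 0.34, adjusted p = 0.028) and AT5G40590, a C1 domain protein, by 1.66 (SE 0.30, adjusted p = 0.0369). The methyltransferase AT1G15125, the GDSL lipase AT3G27950 and the dioxygenase AT5G43440 changed by 1.52, 1.51 and 1.48 with adjusted p of 0.0166, 0.0469 and 0.0431. PIF4, a light-regulated transcription factor that promotes elongation growth, ran from 7.79 to 22.0 CPM (median 15.5) in untreated and from 15.9 to 76.4 CPM (median 39.7) in flg22 libraries, and the groups were separated within each experiment. It changed by 1.38 (SE 0.16, adjusted p = 0.000506). PCK2, a phosphoenolpyruvate carboxykinase, MC2, a metacaspase, and the kinase-like gene AT3G46280 changed by 1.39, 1.3 and 1.02, with adjusted p of 0.0127, 0.0118 and 0.0016, and did not overlap between groups. These 4 were named after their values were seen. Several of the calls above rested on few of the 12 leave-out fits. AT5G40590 passed in 1, and PUB22, CHI and EXPA10 in 2. AT3G27950, AT1G51850, WRKY33, AT1G30720 and AT4G20860 passed in 3, and MYB51, XTH18 and AT5G43440 in 4. PUB19 and IGMT3 passed in 5, and AT1G14550 and AT1G30700 in 6. AT1G26380, AT1G30730, AT1G13480, AT5G42530 and UNE11 passed in 7. In contrast, AT4G01700, AT1G02360, PER4, PRP1, IGMT2, EXT12, CYP81F2, AT2G47550, AT4G20830, PIF4, PCK2, MC2 and AT3G46280 passed in all 12.

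**Figure D2:**
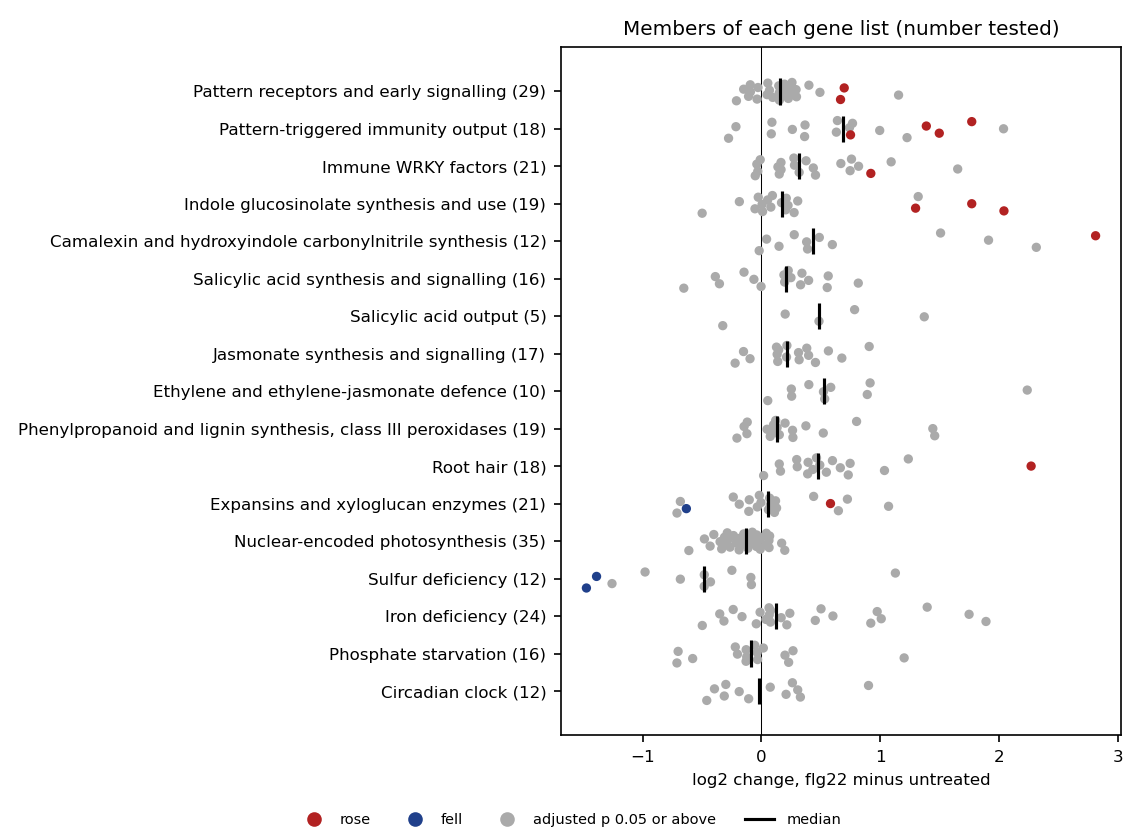
Log2 change (flg22 minus untreated) of every tested member of 17 gene lists, with the number tested in brackets. Each point is 1 gene, black bars are list medians, red and blue points passed the test. Pattern-triggered immunity output has the highest median, 0.69, and sulfur deficiency the lowest, -0.48.

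Hormone-related lists gave no calls. Over all genes tested 0.480% rose and 0.269% fell, so lists of this size would often give none. A lack of response cannot be read from these counts. None of 16 tested salicylic acid synthesis and signalling genes, 5 salicylic acid output genes, 17 jasmonate genes or 10 ethylene and ethylene-jasmonate genes passed. PR1, the classical marker of salicylic acid signalling, was too low to be tested, with 4 reads over the 6 untreated and 43 over the 6 flg22 libraries. Of the 17 salicylic acid output genes 12 were not tested, with up to 131 reads for such a gene in 1 library. Of the 5 tested 4 had values above 0. Their median was 0.48 over both experiments, but 0.0046 in A and 0.19 in B. GRXS13, a glutaredoxin of that list, had a log2 change of 1.37 (SE 0.50, adjusted p = 0.281), with 3.48 in A and 0.19 in B. PR5 had -0.33 (SE 0.17, adjusted p = 0.432) and was the 1 value below 0, and DMR6, a salicylic acid hydroxylase, 0.55 (SE 0.18, adjusted p = 0.188). NPR4, a salicylic acid receptor, had 0.33 (adjusted p = 0.238). PDF1.2, a defensin gene of the ethylene-jasmonate branch, ran from 0.215 to 2.69 CPM in untreated and from 1.65 to 9.93 CPM in flg22 libraries, a log2 change of 2.23 (SE 0.51) that missed the threshold with an adjusted p of 0.0618. AOC2, an enzyme of jasmonate synthesis, had 0.91 (SE 0.28, adjusted p = 0.15).

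The largest fall among the genes called was that of TIP2;3. TIP2;3, a vacuolar membrane channel of roots, ran from 4.25 to 12.6 CPM (median 9.52) in untreated and from 0.856 to 4.92 CPM (median 1.89) in flg22 libraries, separated within each experiment. It changed by -1.77 (SE 0.32, adjusted p = 0.0166). CT-BMY, the chloroplast beta-amylase that breaks down starch, ran from 507 to 649.7 CPM (median 562) and from 128 to 324 CPM (median 281), without overlap, and changed by -1.11 (SE 0.17, adjusted p = 0.0094). SWEET2, a sugar transporter, went from 62.2 to 81.9 CPM to 41.5 to 43.6 CPM in experiment A and from 139.9 to 159.5 CPM to 77.9 to 116 CPM in experiment B, a log2 change of -0.73 (SE 0.11, adjusted p = 0.00427). AMY2, an alpha-amylase-like gene, changed by -0.58 (SE 0.13, adjusted p = 0.0409); SWEET2 and AMY2 were named after their values were seen.

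The sulfur deficiency list had 2 genes that fell among 12 tested, a median log2 change of -0.48 and 11 values below 0. LSU2, a small protein gene induced by low sulfur, ran from 54.1 to 61.9 CPM in the 3 untreated and from 11.3 to 27.0 CPM in the 3 flg22 libraries of experiment A. In experiment B it ran from 6.26 to 12.8 CPM and from 3.98 to 6.85 CPM, so that the groups overlapped there. Its pooled log2 change was -1.39 (SE 0.25, adjusted p = 0.0233) and that of LSU1 was -1.47 (SE 0.29, adjusted p = 0.023). APR2, a reductase of sulfate assimilation, averaged 539 CPM in untreated and 242 CPM in flg22 libraries, a log2 change of -0.98 with an adjusted p of 0.098. Other genes that fell were AT3G24460 (a Serinc-domain protein, -1.51), BT1 (a BTB and TAZ domain protein, -1.47), AO (L-aspartate oxidase of NAD synthesis, -1.19), DTX1 (a MATE efflux carrier, -1.18), AT5G54130 (a calcium-binding phosphatase family protein, -1.14) and AT5G12110 (an elongation factor subunit, -1.03). TPD1, AT5G17600, G3Pp1 (a putative glycerol-3-phosphate transporter), BGLU6 and HYH (a light-signalling transcription factor related to HY5) changed by -0.94, -0.94, -0.90, -0.87 and -0.87. Of the genes that fell, TIP2;3, CT-BMY, SWEET2, COL2, AT5G54130, AT5G17600 and G3Pp1 passed in all 12 leave-out fits. AT3G24460 passed in 11, LSU1 in 10, BGLU6 in 9, and LSU2 and HYH in 8. AO passed in 5, AT5G12110, TPD1 and AMY2 in 4, BT1 in 3, STH in 2 and DTX1 in 1.

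Photosynthesis, cell division, iron and phosphate genes gave no calls. With 0.480% of all genes tested rising and 0.269% falling, lists this short would often give none. The absence of calls therefore does not show that these genes did not respond. Of 35 tested nuclear photosynthesis genes, 28 had values below 0 and the median was -0.13, with RBCS1B, a Rubisco small subunit gene, at -0.61 (SE 0.15, adjusted p = 0.0677). None of 22 cell division genes, 24 aliphatic glucosinolate genes, 16 endoplasmic reticulum folding genes, 18 auxin genes, 15 endodermis and root tip genes, 8 senescence genes, 7 touch genes, 5 iron storage genes, 24 iron deficiency genes and 14 anthocyanin and flavonoid genes passed. DFR, an anthocyanin enzyme, had a log2 change of 1.72 (SE 0.68, adjusted p = 0.322): flg22 A1 and A3 held 86.9 and 118 CPM and flg22 A2 held 11.7 CPM, beside 8.50 to 17.8 CPM in the untreated libraries of experiment A. Of 16 tested phosphate starvation genes none passed, with a median of -0.09. AT4G28610 (PHR1, the regulator of the phosphate starvation response) and PHL1, its close homologue, changed by -0.09 (SE 0.10, adjusted p = 0.777) and -0.04 (SE 0.14, adjusted p = 0.943). AT4, a non-coding RNA induced by phosphate starvation, had 1.2 (SE 0.37, adjusted p = 0.18).

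Many genes responded differently in the experiments. The treatment by experiment interaction passed for 558 genes (3.19%), of which 375 had the lower and 183 the higher change in experiment B, and 481 had opposite signs. Of these 558 genes, 488 showed the larger gap between experiments in the untreated and 70 in the flg22 libraries, with median absolute gaps of 1.26 and 0.38 on the log2 scale, taken on log2(CPM + 0.5), beside 0.29 and 0.20 over all genes tested. Experiment A alone called 705 genes higher (4.02%) and 441 lower (2.52%), and experiment B alone 44 (0.255%) and 12 (0.0695%). With each experiment fitted on its own 6 libraries, 62 of the 84 genes that rose passed in A and 17 in B. The 9 that passed in both of these fits were AT4G01700, AT1G02360, PRP1, PER4, AT3G46280, IGMT2, AT4G20830, EXT12 and AT3G10720. Of the 47 that fell, 36 passed in A, 4 in B and 0 in both. When the response in each experiment was instead taken from the 12-library fit with the interaction, 64 and 11 of the 84 passed in A and B, 6 in both, and 38 and 6 of the 47, 3 in both. Of the 9 genes named, 5 passed in both experiments by either fit: AT4G01700, AT1G02360, PRP1, PER4 and EXT12.

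TPS11, a trehalose phosphate synthase family gene regulated by sugar status, showed the pattern most plainly. It held 4.18 to 7.76 CPM in the untreated libraries of experiment A and 110.04 to 118 CPM in the flg22 libraries of A, but 82.9 to 116 and 65.7 to 92.6 CPM in those of B. The 3 untreated libraries of experiment A thus stood apart from the other 9. AT1G80440, a kelch repeat gene, and AT5G22920, a zinc finger gene, were likewise lowest in untreated A, with log2 changes of 4.1 and 4.99 in A, beside, for B, -0.43 and -1.01. AT3G62550 was highest in flg22 A, at 9.42 to 19.3 CPM, with 0 to 1.06 CPM in untreated A, 2.18 to 4.13 in untreated B and 1.23 to 2.40 in flg22 B. AT1G02610 was low in untreated A (0.440 to 1.72 CPM) and in flg22 B (2.15 to 4.11 CPM), beside 7.59 to 10.9 CPM in flg22 A and 8.91 to 10.09 CPM in untreated B. In the other direction, PRR9, a morning component of the circadian clock, held 63.0 to 68.1 CPM in untreated A, 1.24 to 1.45 CPM in untreated B and 19.6 to 29.5 CPM in all flg22 libraries. MYB12, a flavonol regulator, AT2G27420, AT3G44450 and AT4G26950 were also highest in untreated A. The adjusted p of the interaction was 1.69e-09 for TPS11 and 1.74e-10 for PRR9.

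**Figure D3:**
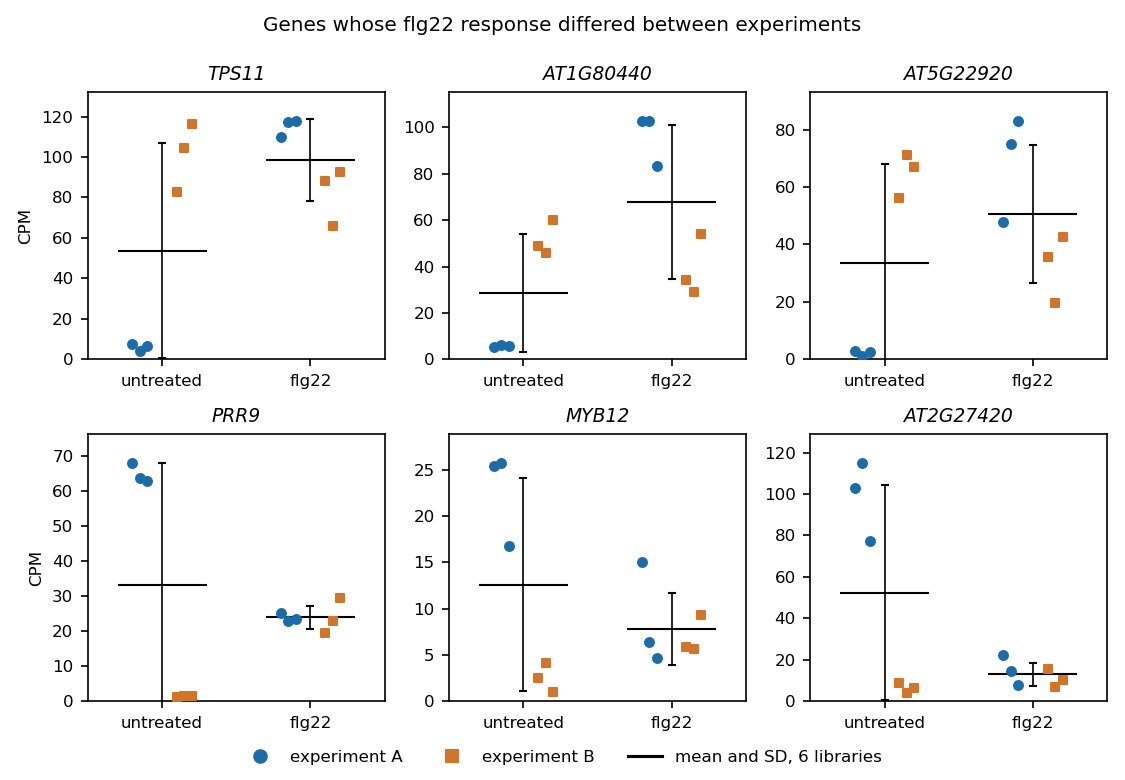
CPM in each library of 6 genes whose flg22 response differed between experiments. Circles are experiment A, squares experiment B, bars the mean and SD of 6 libraries. In TPS11, AT1G80440 and AT5G22920 the untreated libraries of experiment A lie lowest, and in PRR9, MYB12 and AT2G27420 highest.

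Of 12 tested circadian clock genes none passed, with 6 values above and 6 below 0 and medians of -0.02 over both experiments, -0.35 in A and 0.02 in B. The summed level of the list, to which its abundant members contribute most, did not overlap between the groups within either experiment. Its 14 genes summed to 2181 to 2444 CPM in untreated A and 1666 to 1894 CPM in flg22 A, and to 3222 to 3480 CPM in untreated B and 2649 to 2928 CPM in flg22 B. PRR7 had a log2 change of 0.90 (SE 0.20, adjusted p = 0.0555), with 0.47 in A and 1.58 in B, and RVE8 -0.46 (SE 0.11, adjusted p = 0.0515). COL2 and STH, B-box genes of light and day-length signalling named after their values were seen, fell by 0.61 (SE 0.09, adjusted p = 0.00423) and 0.53 (SE 0.12, adjusted p = 0.0415) on the log2 scale. COL2 ran from 133 to 138 CPM in untreated A, 83.2 to 95.9 in flg22 A, 432 to 447 in untreated B and 262 to 329 in flg22 B. The time of harvest is not given in the labels, and the part of the clock genes in the other changes, PIF4 and CT-BMY among them, was not tested.

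**Figure D4:**
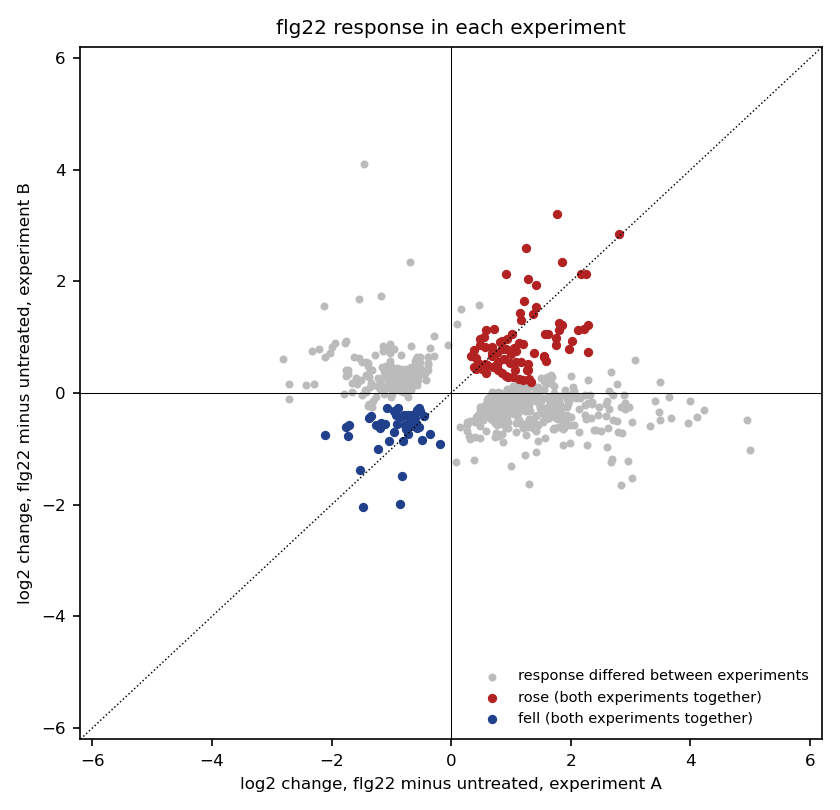
Log2 change (flg22 minus untreated) in experiment A (x axis) and experiment B (y axis). Red points are the 84 genes that rose, blue points the 47 that fell, grey points the 558 whose response differed between experiments, and the dotted line marks equal changes. All 131 called genes lie in the quadrants of equal sign, which their selection on both experiments together favours.

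The same contrast in other seedlings, each against its own controls, gave larger lists. In Col-0 at low phosphate 557 genes rose (3.24%) and 317 fell (1.84%). In phr1 phl1 at high phosphate 1025 rose (5.90%) and 628 fell (3.61%) in 11 libraries. There 1 untreated library was left out, because earlier results of these data, not shown here, went against its genotype label. Of the 84 genes that rose in Col-0 at high phosphate, 54 (64.3%) also rose at low phosphate, where they were 9.69% of the risers, and 67 (79.8%) also rose in phr1 phl1, where they were 6.54%. Of the 47 that fell, 6 (12.8%) also fell at low phosphate (1.89% of that list) and 30 (63.8%) in phr1 phl1 (4.78%). Called or not, 33 of the 46 tested at low phosphate had a change below 0, with a median of -0.24. In phr1 phl1 this held for 47 of 47, with a median of -0.56. None was called in the opposite direction in either. In phr1 phl1 at low phosphate, with 679 risers (3.97%) and 352 that fell (2.06%), the shared genes were 49 (58.3%) and 8 (17.0%).

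Gene by gene, AT1G26380 changed by 2.90 at low phosphate and by 3.6 in phr1 phl1, with adjusted p of 1.36e-05 and 1.07e-06. AT4G01700 changed by 1.51 and 1.75, CYP81F2 by 1.69 and 1.77, IGMT2 by 2.65 and 2.97 and MYB51 by 1.25 and 1.47, each past the threshold in both. LSU2 had 0.05 at low phosphate (adjusted p = 0.967) and -1.49 in phr1 phl1 (adjusted p = 1.4e-05), PIF4 0.36 (adjusted p = 0.128) and 1.26 (adjusted p = 2.55e-06), and BT1 0.50 (adjusted p = 0.4) and -0.77 (adjusted p = 0.000661). Despite these side-by-side values, no gene passed the treatment by phosphate interaction among 18088 tested (0%). DESeq2 called 4 higher and 8 lower at low phosphate. At an unadjusted p under 0.05 by edgeR, 426 were higher (2.36%) and 583 lower (3.22%). Nor did any gene pass the treatment by genotype interaction among 18195 tested (0%), and DESeq2 called 0 higher and 1 lower in phr1 phl1. Here 572 (3.14%) and 498 (2.74%) had an unadjusted p under 0.05 by edgeR. Chance alone would give a share of about 0.05 over both directions. The smallest adjusted p by edgeR was 0.284 and 0.603. In these fits over both experiments no difference between the responses was detected, and a difference is not shown to be absent. Within experiment A alone or B alone some genes did pass, as given in the closing section.

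**Figure D5:**
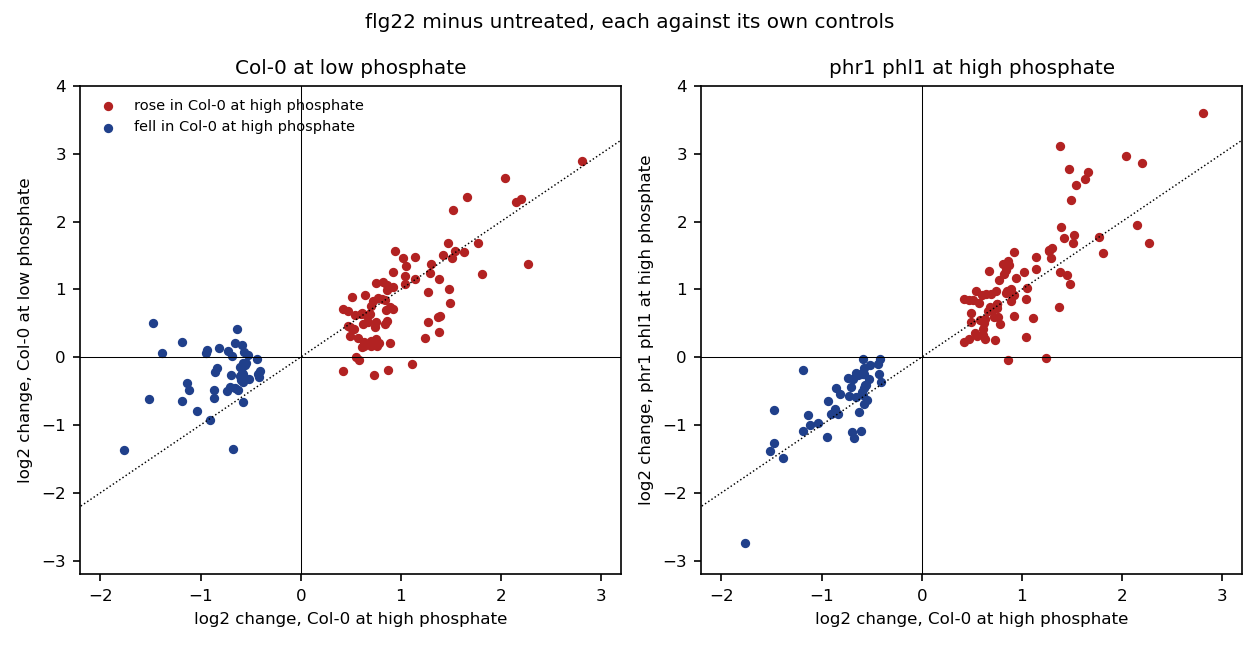
Log2 change of the genes called in Col-0 at high phosphate (x axis) against their change in Col-0 at low phosphate (left) and in phr1 phl1 at high phosphate (right), each against its own untreated controls. Red points rose and blue points fell in Col-0 at high phosphate, and the dotted line marks equal changes. Of the genes that fell, 6 were called at low phosphate and 30 in phr1 phl1. Called or not, 33 of the 46 tested at low phosphate and 47 of 47 in phr1 phl1 had a change below 0.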

How the data were processed

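Poly(A) RNA from 1000 ng of total RNA per sample was sequenced without strand information, per the labels' protocols. The deposited values are raw counts of reads per gene, made by the authors; HTSeq 0.6.1p1, TopHat2 2.1.1, cutadapt 1.3 and CASAVA 1.8 are listed, with TAIR10 as the build and no roles, per the submitters' processing notes. Each library held 2212634 to 6883818 counts. Genes with enough counts by filterByExpr (minimum count 10) were fitted with edgeR 4.0.16 in R 4.3.3 (TMM factors, robust quasi-likelihood, experiment and treatment as terms, the 12 libraries alone), with Benjamini-Hochberg adjustment over all genes and a threshold of 0.05. Differences between experiments, phosphate levels and genotypes were interaction terms. Tested on simulated data of 17309 genes, the fit recovered 81% of 2-fold and 95% of 4-fold changes (100 genes each). Beside these 81 and 95 recovered genes it called 17 unchanged ones. The simulation held no gene whose response differed between experiments, so its recovery need not hold for these data. Alternatives were RLE factors, DESeq2 1.42.0, no filter, all 72 libraries, a replicate block, no experiment term, each experiment alone and each library left out. Of 27206 loci, 26719 matched RefSeq's TAIR10.1 annotation and 26718 had a promoter window.

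Genes named by rule were up to 15 that rose and 15 that fell with the largest changes, the same sign in both experiments and a mean log2 CPM of at least 1, up to 4 per list that passed or the 2 with the smallest p where none did, and FLS2, BAK1, PHR1 and PHL1. Other named genes were chosen after their values were seen. The members and lists were chosen with earlier results of these data known.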

Additional observations from a re-analysis of the deposited data

Results flagged for a closer look

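In 12 of the 190 groups of 6 libraries examined, 1 library lay far from the other 5 by Dixon's criterion, which chance meets in about 1 in 20 groups drawn from 1 normal distribution. In flg22 A2 this was AT1G26380 at 34.8 CPM, AT1G30720 at 54.5, PUB23 at 54.3 and BHLH101 at 87.0. In flg22 A1 it was AT3G10720 at 197 CPM, UNE11 at 18.4, AT5G17600 at 14.6 and AOC2 at 27.4. In untreated A3 it was AT2G47550 at 15.1 CPM, AT5G40590 at 44.4 and AT5G43440 at 6.38, and in untreated B1 PDF1.2 at 2.69. Each group mixes experiments A and B, and many genes were named by their values. The rate of 1 in 20 need not hold here.

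The response differed between the experiments for 558 genes by edgeR's interaction term. Of the genes called in the pooled response 11 were among them, each with the same sign in both experiments. For those that rose the change in experiment B minus that in A was -0.86 for IGMT4, -0.87 for UGT85A2, -0.89 for AT1G67900, -1.06 for ACR4, -1.13 for AT2G14080 and -0.96 for AT2G03440. For those that fell it was 1.36 for AT3G24460, 1.15 for AO, 1.13 for AT5G54130, 0.93 for HYH and -0.73 for CIPK1. Among genes not called it was 1.1 for PRR7, 1.14 for PRP3, -3.29 for GRXS13, 5.56 for PRR9, -6.00 for AT5G22920 and -5.42 for AT3G62550. It was -4.54 for TPS11, -4.54 for AT1G02610, -4.53 for AT1G80440, 3.08 for AT3G44450, 3.22 for MYB12, 3.43 for AT2G27420 and 3.69 for AT4G26950.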

How the results depend on the processing

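The counts of genes that rose and fell were 206 and 112 by DESeq2, 5 and 2 without the experiment term, 705 and 441 in experiment A alone and 44 and 12 in experiment B alone. With 1 library left out they ran from 18 to 149 and from 11 to 90. RLE factors gave 83 and 47, no filter 100 and 58 and all 72 libraries 96 and 49. With replicate number as a block they were 62 and 30, and 46 and 27 of those genes were shared. Same-numbered libraries had correlations of their deviations from -0.104 to 0.275, and differently numbered ones of the same experiment from -0.301 to 0.202. The highest value, 0.275, was that of the libraries numbered B1. So few libraries cannot decide whether the numbers pair the samples. The cause of these shifts was not tested. Genes whose response differed from that at low phosphate, 0 higher and 0 lower, became 4 and 8 by DESeq2, 59 and 121 in experiment A alone, 8 and 11 in experiment B alone, 1 lower with all 72 libraries, and 0 to 1 higher and 0 to 2 lower with a library left out. For phr1 phl1, experiment A alone gave 3 higher and 11 lower, experiment B alone 9 higher, DESeq2 1 lower, and a library left out 0 to 1 lower. No named gene called in the pooled response turned direction in any of these fits. Among the named genes that were not called, PRR9 (pooled 0.31) changed by -1.44 in experiment A alone, -0.58 with all 72 libraries, -0.48 without the experiment term, and from -0.136 (without untreated B3) to 0.740 with a library left out. In experiment B alone the sign turned for AT5G22920 (-1.01), AT3G62550 (-0.48), TPS11 (-0.31), AT1G02610 (-1.52), AT1G80440 (-0.43), AT3G44450 (0.76), MYB12 (1.67), AT2G27420 (0.64), VTL5 (0.023) and FLS2 (0.016), and in experiment A alone for MAM3 (-0.018), SZF1 (-0.084) and AT4G28610 (0.088). With a library left out FLS2 ran from -0.264 to 0.0232 and PHL1 from -0.126 to 0.0159. Of these, AT1G02610 and PRR9 passed the test in the experiment where they turned. The depth limits genes of a few CPM, where 1 read in the smallest library is a large share of the value.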
